A study of Mus musculus with 4 samples.

Results

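The Nduf genes encode the nuclear subunits and assembly factors of respiratory complex I (NADH:ubiquinone oxidoreductase). They were followed in RNA that came down with Cpeb4, an RNA-binding protein of the cytoplasmic polyadenylation element family. All probe sets whose annotated gene symbol starts with Nduf were taken, with no limit on level, which gave 44 genes of 25206 probe sets. Of these, 33 encode structural subunits and 8 encode Ndufaf assembly factors. The other 3 were given roles of their own: Ndufa4, whose product is now assigned to cytochrome c oxidase, its relative Ndufa4l2, and the transcribed pseudogene Ndufs5-ps. These 3 are included in the counts and medians of all members below.

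The RNA came from mouse E14.5 fetal liver cells that were selected with magnetic beads for Ter119, a surface antigen of the red cell lineage. There were 3 groups: an immunoprecipitate with an anti-Cpeb4 antibody (Cpeb4 IP, 2 biological replicates), a precipitate with rabbit IgG (1 array) and total input RNA with no antibody (1 array). Genotype, strain and the number of livers per preparation were not given in the labels, and it was not stated whether the control RNA came from the same cells as either IP. An mRNA bound by Cpeb4 would stand above both control arrays in the IP, and the design looks for such mRNAs.

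Complex I is the entry point for electrons from NADH into the respiratory chain and a proton pump of the inner mitochondrial membrane. Its matrix arm holds the flavin and the iron-sulfur clusters that carry electrons to ubiquinone. Its membrane arm pumps protons and is wrapped in small accessory subunits. Assembly factors join the modules and are not part of the finished enzyme. Erythroblasts need mitochondria for heme and iron-sulfur cluster synthesis and later clear them as they become red cells.

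Values are deposited log2 expression values from Affymetrix arrays. A value says how a transcript stood within its array, so a lower value in the IP than in input is a smaller share of that RNA, not an absolute loss. Of the 44 genes, 42 reached the level needed for testing, a mean of 3.844 over the 4 arrays. "Rose" and "fell" mean that the difference passed a limma fit in which genes of like level share 1 spread (adjusted p below 0.05, Benjamini-Hochberg over 13911 tested genes). This is called the common-spread test. Only the 2 IP arrays gave a spread, which was taken to hold for each control array too. The test called differences as small as 0.18 against IgG and 0.19 against input, so members at least 2-fold from a control in both IP replicates were counted as well.

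The arrays differed in their spread and in the levels of cell type markers. The SD over all probe sets was 2.05 and 2.07 on the IP arrays, 1.74 on the IgG array and 2.13 on the input array, so values spread least on the IgG array. The mean value of the erythroid markers was 9.84 and 9.86 in the IP, 9.72 in IgG and 10.44 in input. Slc4a1, the red cell anion exchanger, was highest, at 12.12 and 12.16 in the IP, 11.94 in IgG and 12.20 in input. Hbb-bh1 was lowest, at 6.15 and 6.05 in the IP, 5.21 in IgG and 6.33 in input. Of 8 erythroid markers, 3 were at least 2-fold lower than input in both IP replicates and 0 were 2-fold higher. Markers of other fetal liver cells stood higher in the IP than in input. At least 2-fold higher were 4 of 6 megakaryocyte, 4 of 6 neutrophil, 2 of 6 macrophage and 3 of 5 hepatocyte markers, and 0 were lower. The mean value of the hepatocyte list was 6.17 and 6.32 in the IP, 5.12 in IgG and 4.33 in input. For megakaryocyte markers it was 8.73 and 8.85 in the IP, 7.78 in IgG and 6.91 in input, for neutrophil markers 7.99 and 8.0 in the IP, 6.55 in IgG and 6.18 in input, and for macrophage markers 5.59 and 5.73 in the IP, 5.09 in IgG and 4.51 in input. Their part in the Nduf results was not tested. In RNA pooled over many cells, numbers of cells of a type, RNA per cell and selection of RNA by the precipitation cannot be told apart.

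**Figure D1:**
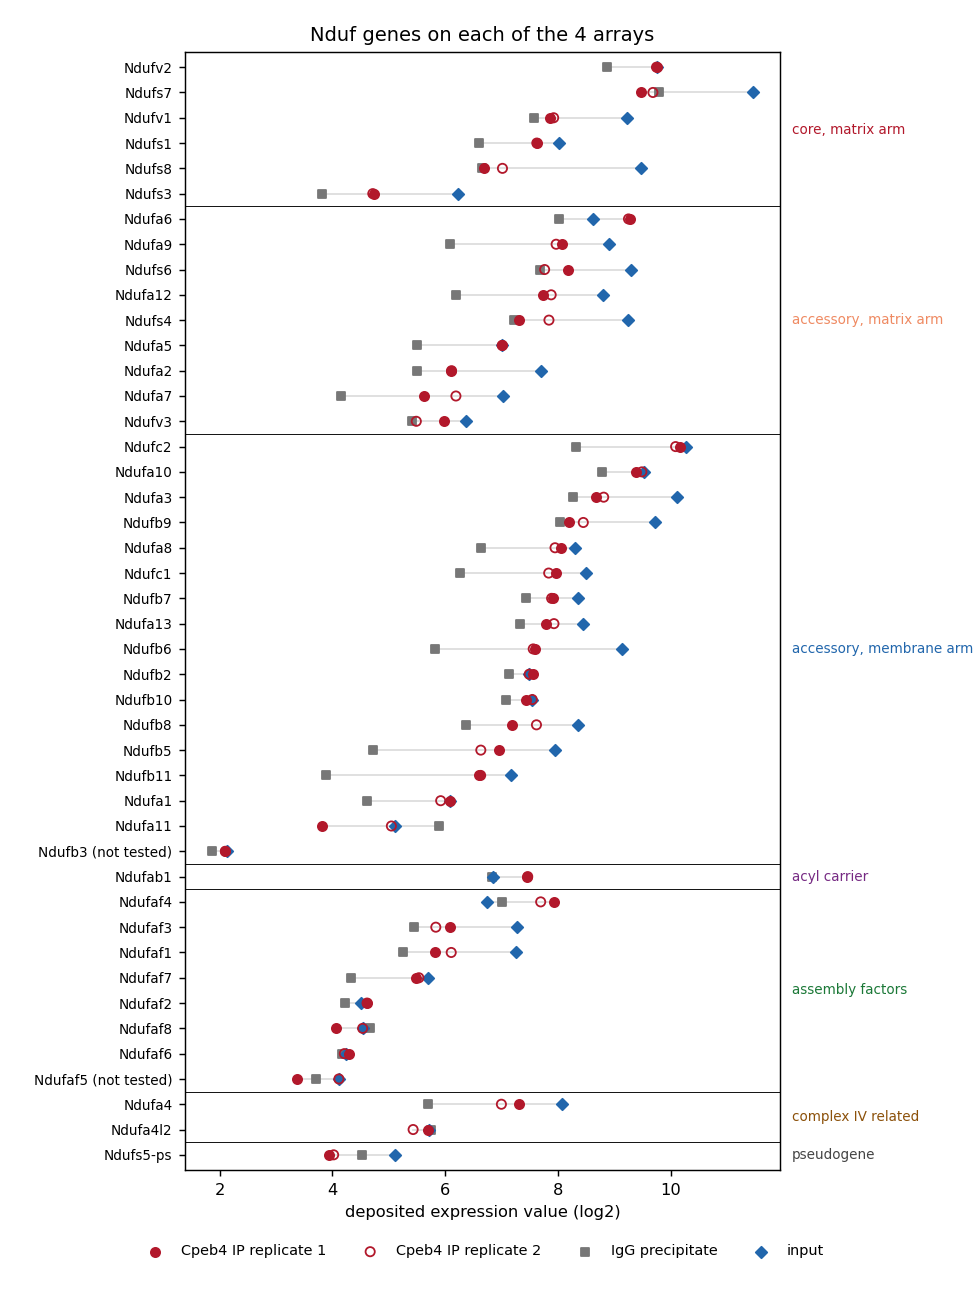
Deposited log2 values of the 44 Nduf genes on each array, grouped by role and sorted by IP mean within a role; filled and open red circles are the 2 Cpeb4 IP replicates, grey squares the IgG array and blue diamonds the input array. For 27 of the 42 tested genes both IP values lie to the right of the IgG value and to the left of the input value, while Ndufa6, Ndufab1 and Ndufaf4, which rose against both, have both IP values to the right of both controls.

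Against input, the Nduf transcripts were mostly lower in the Cpeb4 IP. The median difference of the 42 tested genes was -0.62 in IP replicate 1 and -0.60 in replicate 2, where the median of all tested genes was -0.01. By the test 27 fell and 3 rose. The 27 included Ndufs8, Ndufs7 and Ndufs4 of the matrix arm, and the 3 were Ndufaf4, Ndufa6 and Ndufab1. Of all tested genes 22.3% fell and 14.7% rose against input. At least 2-fold lower in both replicates were 13 of 42, which is 31.0% of the members against 5.18% of all tested genes. None was at least 2-fold higher in both replicates, where 4.04% of all tested genes were. Among the 32 tested structural subunits alone, 10 were at least 2-fold lower in both replicates, and the median difference of the IP mean from input was -0.66.

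Most of these falls held under other scalings. After quantile normalization of the 4 arrays again, 24 of the 27 genes passed in the same direction, all but Ndufa8, Ndufb11 and Ndufs1, and with each array centred on its median 26 did, all but Ndufa8. Of all tested genes 18.8% fell against input after quantile normalization again and 20.8% after centring. All 13 genes at least 2-fold lower than input passed after quantile normalization again. With limma's plain eBayes spread 8 of the 27 passed. The share of all tested genes with that spread is not given here.

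Against IgG, most Nduf transcripts were higher in the Cpeb4 IP. The median difference was 0.62 in IP replicate 1 and 0.67 in replicate 2, against 0.08 for all tested genes. By the test 33 rose, led by Ndufb11, Ndufb5 and Ndufa9, and 3 fell: Ndufa11, Ndufs7 and Ndufs5-ps. Of all tested genes 39.0% rose and 22.3% fell against IgG. At least 2-fold higher in both replicates were 15 of 42, or 35.7%, against 18.6% of all tested genes, and none was at least 2-fold lower, where 6.24% of all tested genes were.

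The difference from IgG moved with level over the whole array, and the Nduf genes were among the higher ones. Of the 42 tested genes, 19 lay among the highest 20% of tested genes by mean value and 9 in the next 20%. Set beside the 35.7% of the Nduf genes, 35.8% of that highest 20% were at least 2-fold over IgG, with a median difference of 0.73. The share was 33.7% in the next 20%, 18.3% in the middle 20% (8 Nduf genes) and 3.95% in the 20% below that (5 Nduf genes). The 42 Nduf genes were therefore not matched by level to the highest 20%, here or in the later comparisons with it. In the lowest 20% the median was -0.35 and the share 1.26%. Against input, 8.37% of the highest 20% were at least 2-fold lower in the IP, with a median of -0.11.

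The direction against IgG also depended on the scaling. After quantile normalization again, 21 Nduf genes rose and 11 fell, where 30.8% of all tested genes rose and 31.2% fell. Of the 33 Nduf genes that had risen, 10 turned direction. Centring each array on its median left 24 up and 4 down, where 31.5% of all tested genes rose and 32.9% fell. Over all tested genes the upward share of calls against IgG was 63.6% with the values as deposited, 49.7% after quantile normalization again and 48.9% after centring. The Nduf median against IgG stood 0.56 above the median of all tested genes with the values as deposited and 0.33 above it after quantile normalization again. Centring moved the median of all tested genes against IgG to -0.165 and, taking 1 constant from each array, left the gap as it was.

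**Figure D2:**
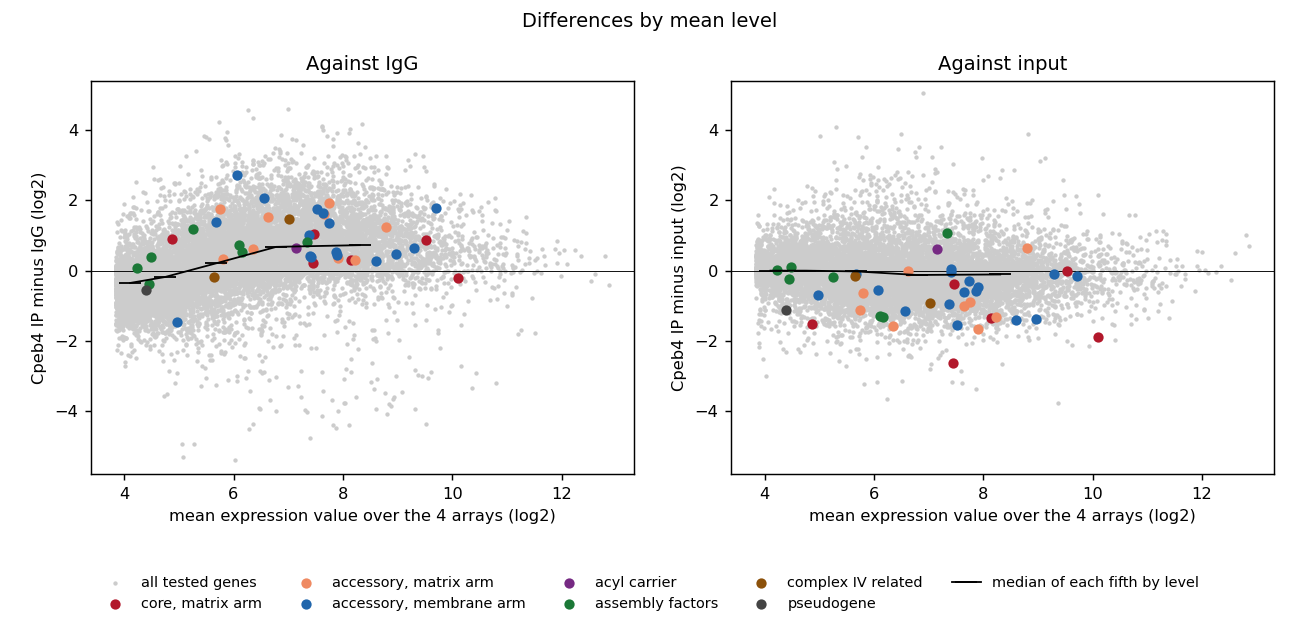
Difference of the Cpeb4 IP mean from IgG (left) and from input (right), in log2, against the mean value over the 4 arrays; grey points are the 13911 tested genes, coloured points the 42 tested Nduf genes by role, and the black line joins the medians of successive 20% groups by level. The line climbs to 0.73 in the highest group against IgG, where the Nduf genes lie on both sides of it, and is at -0.11 against input, where most Nduf genes lie below it.

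The IgG array itself stood low for these genes. IgG minus input had a median of -1.63 over the 42 tested genes, against -0.15 for all tested genes and -0.88 for the highest 20% by level. By size, 27 of 42 were at least 2-fold lower in IgG than in input, a share of 64.3%. The share was 23.9% of all tested genes and 43.8% of the highest 20% by level. No Nduf gene was at least 2-fold higher in IgG, where 7.93% of all tested genes were. After quantile normalization again the Nduf median of IgG minus input was -1.0, the median of all tested genes -0.024, and 21 of 42 were at least 2-fold lower in IgG, against 13.9% of all tested genes. With centring the medians were -1.34 and 0.146. With the values as deposited, of the 15 genes at least 2-fold over IgG, 14 were also at least 2-fold lower in IgG than in input, and 10 fell against input in the IP. The 15 and the 14 both rest on the same IgG array, so a low IgG value favours both and no conclusion is drawn from their overlap. The matching shares of all tested genes are not given here.

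With the values as deposited, the Cpeb4 IP lay between its controls for most members. In 27 of the 42 genes both replicates were above IgG and below input, an order held by 22.2% of all tested genes and by 39.6% of the highest 20% by level. By the test, 22 members rose against IgG and fell against input, a pattern of 10.8% of all tested genes. Both counts moved with the scaling: 17 members lay between the controls after quantile normalization again (19.7% of all tested genes) and 22 after centring (16.5%). The rise against IgG with a fall against input was then called for 11 members (5.36%) and 14 members (7.49%). None was at least 2-fold higher than both controls in both replicates, where 2.49% of all tested genes were, and none was at least 2-fold lower than both, where 0.503% were. By the test alone 3 members rose against both (10.9% of all tested genes) and 3 fell against both (3.76%). The comparisons share the IP arrays, so these counts are not independent of each other.

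**Figure D3:**
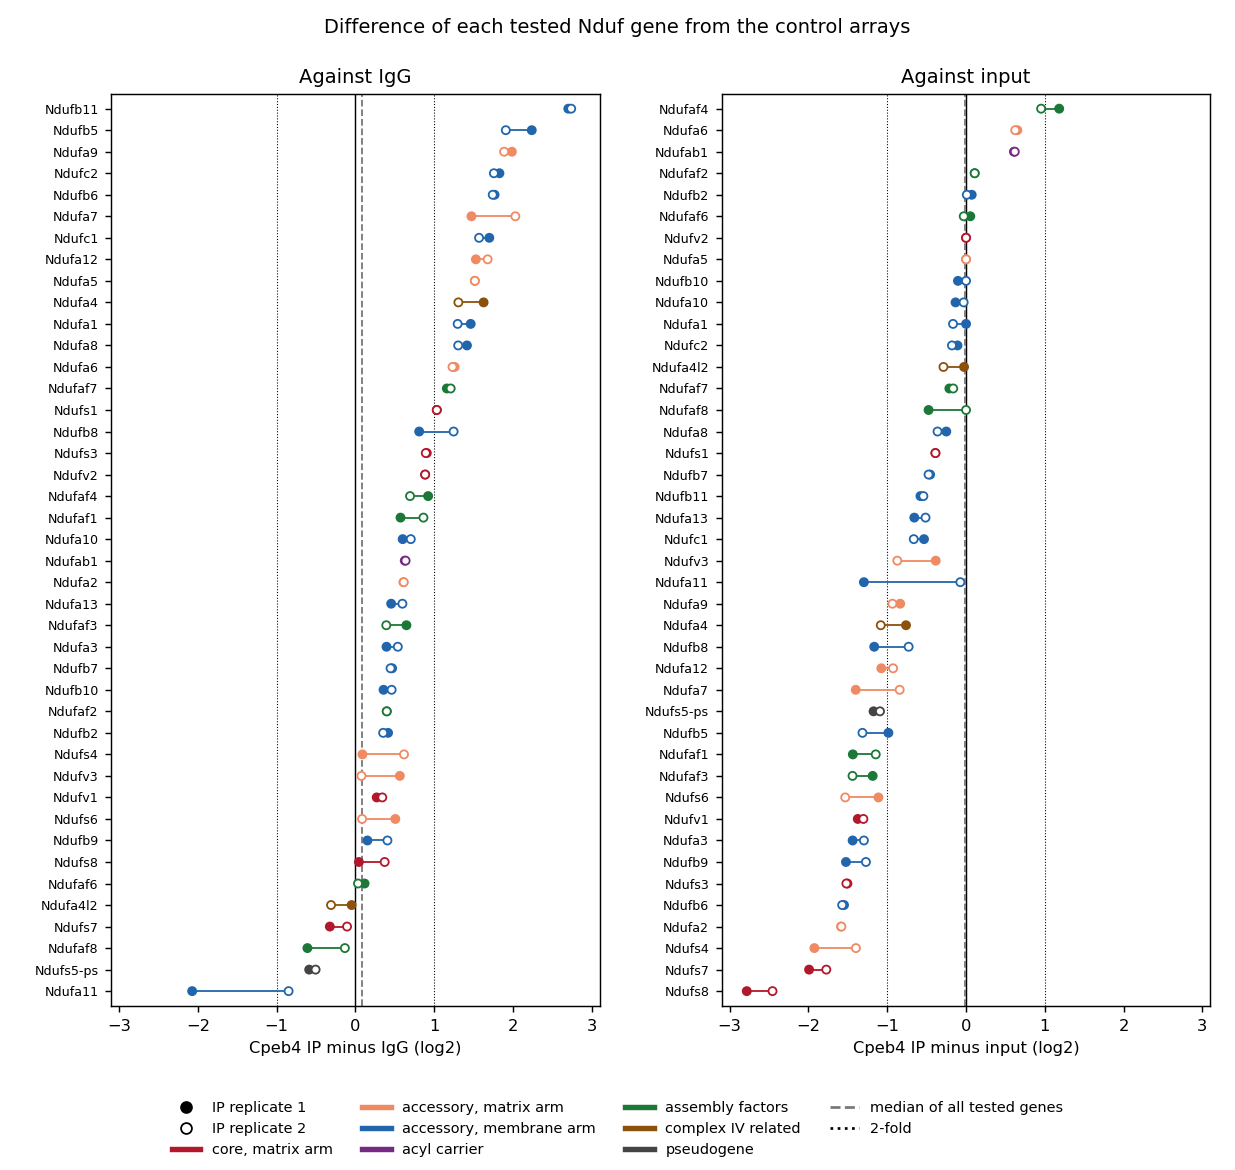
Difference of each IP replicate from IgG (left) and from input (right), in log2, for the 42 tested Nduf genes, each panel sorted by the mean; filled circles are IP replicate 1, open circles replicate 2, colours the role, dotted lines 2-fold and the dashed line the median of all tested genes. Against IgG the genes run from -1.46 (Ndufa11) to 2.72 (Ndufb11), and against input from -2.62 (Ndufs8) to 1.07 (Ndufaf4).

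The core subunits of the matrix arm, which carry out electron transfer, stood lowest against input. Of 6, 5 fell against input and 4 were at least 2-fold lower in both replicates, with a median difference of -1.42. The shares of all tested genes were 22.3% and 5.18%. Ndufs8, which holds iron-sulfur clusters near the quinone site, was at 6.69 and 7.02 in the IP, 6.64 in IgG and 9.47 in input. Both IP values lay next to the IgG value and far under input, so Ndufs8 was 6.15-fold lower than input (difference -2.62, SE 0.12). It did not pass against IgG with a difference of 0.21 (common-spread adjusted p = 0.142), and after quantile normalization again it stood at -0.45 and passed as a fall (common-spread adjusted p = 0.000464). Ndufs7, which carries the last iron-sulfur cluster before ubiquinone, was at 9.46 and 9.68 in the IP, 9.79 in IgG and 11.46 in input. It was the only core subunit to fall against both controls, 3.69-fold against input and by 0.22 on the log2 scale against IgG (common-spread adjusted p = 0.0145), with -0.32 in replicate 1 and -0.11 in replicate 2.

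The other core subunits were 3 that fell against input and 1 with the same values as input. Ndufs3, a core subunit of the quinone module, had 4.73 and 4.72 in the IP, 3.82 in IgG and 6.24 in input, 2.85-fold lower than input and 1.87-fold higher than IgG. Ndufv1, which binds NADH and the flavin, had 7.85 and 7.92 in the IP, 7.58 in IgG and 9.23 in input. Its IP values were again close to IgG: it fell 2.53-fold against input, and a rise of 0.31 over IgG became -0.43 after quantile normalization again. Ndufs1, the largest subunit of the arm, had 7.62 and 7.62 in the IP, 6.59 in IgG and 8.01 in input, nearer to input. Ndufv2, the iron-sulfur partner of Ndufv1, had 9.75 and 9.75 in the IP, 8.86 in IgG and 9.75 in input. Its values on the IP and input arrays were equal within 1e-09, as summarised probe values can be, so its difference of 0.00 from input is not a precise measure of equality.

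The accessory subunits of the matrix arm showed the same order with a wider gap to IgG. Of 9, 8 rose against IgG and 1 did not pass, while 7 fell and 1 rose against input, and the list medians were 1.25 and -1.0. Among all tested genes 39.0% rose against IgG, and 22.3% fell and 14.7% rose against input. Ndufs4, a small subunit whose loss in mice causes a fatal encephalopathy, had 7.31 and 7.84 in the IP, 7.22 in IgG and 9.24 in input. It was 3.16-fold lower than input, and its rise of 0.35 over IgG became -0.38 after quantile normalization again. Ndufa2, a subunit with a thioredoxin-like fold, had 6.11 and 6.11 in the IP, 5.50 in IgG and 7.70 in input, 3.0-fold lower than input. Ndufa9, a subunit at the joint of both arms, had 8.06 and 7.97 in the IP, 6.08 in IgG and 8.90 in input. Its gap to IgG, 3.83-fold, exceeded its 1.85-fold gap to input.

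Ndufa7 had 5.63 and 6.19 in the IP, 4.16 in IgG and 7.03 in input, and its IP replicates differed by more than 0.5. It rose 3.37-fold over IgG and fell 2.18-fold against input. Ndufa12 was similar, with 7.73 and 7.88 in the IP, 6.20 in IgG and 8.80 in input. Ndufs6, a zinc-binding subunit, had 8.18 and 7.76 in the IP, 7.68 in IgG and 9.30 in input and fell 2.50-fold against input. Its 0.30 rise over IgG was 0.51 in replicate 1 and 0.08 in replicate 2, and became -0.43 after quantile normalization again. Ndufa5 was at 7.01 in both IP replicates and in input, against 5.49 in IgG, with the IP and input values equal within 1e-09. Ndufs4 also rested mostly on 1 replicate against IgG, with 0.09 in replicate 1 and 0.62 in replicate 2. Ndufv3 differed by -0.63 from input (common-spread adjusted p = 0.00971), with -0.38 in replicate 1 and -0.87 in replicate 2, and did not pass against IgG.

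Among the accessory subunits of the membrane arm, 16 of 17 were tested, of which 15 rose and 1 fell against IgG. Against input 11 fell and 5 did not pass, with list medians of 0.84 against IgG and -0.57 against input. The shares of all tested genes were 39.0% for a rise against IgG and 22.3% for a fall against input. Ndufb11, an X-linked subunit whose mutation in humans can cause sideroblastic anemia, had 6.59 and 6.63 in the IP, 3.89 in IgG and 7.17 in input. The IgG value stood far below the other arrays, and Ndufb11 was 6.59-fold over IgG, the largest such gap of the members, while its difference from input was -0.56 (common-spread adjusted p = 0.0146). Ndufb5 had 6.96 and 6.63 in the IP, 4.72 in IgG and 7.95 in input, 4.21-fold over IgG and 2.22-fold under input. Ndufb6 had 7.58 and 7.56 in the IP, 5.82 in IgG and 9.13 in input. Its IP values lay midway, and it was the only member at least 2-fold higher than IgG and at least 2-fold lower than input in both replicates, a pattern of 0.633% of all tested genes.

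Ndufc2, at 10.15 and 10.08 in the IP, 8.33 in IgG and 10.26 in input, was 3.46-fold over IgG and did not pass against input. Ndufa1, Ndufa8 and Ndufc1 likewise stood at least 2-fold over IgG, by 1.38, 1.36 and 1.63, and differed from input by -0.08, -0.31 and -0.60, the first of which did not pass. Ndufa3 and Ndufb9 were the other membrane arm subunits at least 2-fold lower than input in both replicates. Ndufa3 had 8.67 and 8.81 in the IP, 8.27 in IgG and 10.11 in input. Ndufb9, a subunit of the LYR family, had 8.19 and 8.45 in the IP, 8.04 in IgG and 9.72 in input. The rise of Ndufb9 over IgG was 0.15 in replicate 1 and 0.41 in replicate 2. Both genes turned direction against IgG after quantile normalization again, to -0.19 for Ndufa3 and -0.40 for Ndufb9.

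Some membrane arm subunits hardly differed between the IP and input. Ndufb2 had 7.55 and 7.49 in the IP, 7.14 in IgG and 7.48 in input, a difference of 0.04 from input with an SE of 0.13. Ndufb10 and Ndufa10 differed from input by -0.05 and -0.08 and did not pass. Ndufb7, Ndufa13 and Ndufb8 fell against input by 0.47, 0.59 and 0.95 on the log2 scale. Against IgG they rose by 0.46, 0.53 and 1.03, and Ndufb2, Ndufb10, Ndufb7 and Ndufa13 turned below IgG after quantile normalization again.

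Ndufa11, a subunit at a joint of the membrane arm, ran against its group. It had 3.82 and 5.05 in the IP, 5.89 in IgG and 5.12 in input, so that both IP values lay below both controls. Its IP replicates were 1.22 apart, the widest gap among the tested members, whose median gap was 0.121. It fell by 1.46 against IgG and by 0.68 against input on the log2 scale. Without IP replicate 1 it differed by -0.85 from IgG and -0.07 from input, and without replicate 2 by -2.07 and -1.30, so the gap to input rests on replicate 1. Ndufb3 was too low to test, with 2.10 and 2.10 in the IP, 1.87 in IgG and 2.13 in input.

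The members that rose against both controls were Ndufa6, Ndufab1 and Ndufaf4. Ndufab1, the mitochondrial acyl carrier protein, also serves fatty acid and iron-sulfur cluster synthesis, and Ndufa6 is a LYR family subunit that binds it. Ndufa6 had 9.28 and 9.25 in the IP, 8.02 in IgG and 8.62 in input, higher by 1.25 and 0.64. It passed against both controls also after quantile normalization again, with 0.61 and 0.84, and was the only one of the 3 to do so. Ndufab1 had 7.45 and 7.46 in the IP, 6.83 in IgG and 6.84 in input, with both IP values above nearly equal controls. After quantile normalization again it stood 0.73 over input and -0.08 from IgG. Ndufb9, also of the LYR family, stood with the majority below input.

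The Ndufaf assembly factors did not share 1 pattern. Of 8, 7 were tested: 4 rose against IgG and 3 did not pass, and 1 rose and 2 fell against input. With 7 genes these counts are small beside the shares of all tested genes, 39.0% up against IgG, and 14.7% up and 22.3% down against input. Ndufaf3 and Ndufaf4 act as a pair in building the quinone module, and their transcripts stood on opposite sides of input. Ndufaf4 had 7.92 and 7.69 in the IP, 7.0 in IgG and 6.74 in input, 2.10-fold higher than input, the largest rise of the members. Ndufaf3 had 6.09 and 5.83 in the IP, 5.44 in IgG and 7.27 in input, 2.48-fold lower than input. The 0.81 rise of Ndufaf4 over IgG was 0.07 after quantile normalization again and did not pass (common-spread adjusted p = 0.662), while against input it stayed at 1.16. With the plain eBayes spread Ndufaf4 passed against neither control (limma adjusted p = 0.118 for IgG and 0.130 for input).

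Ndufaf1, a factor of membrane arm assembly, had 5.82 and 6.11 in the IP, 5.24 in IgG and 7.25 in input, 2.45-fold lower than input. Ndufaf7, a methyltransferase that modifies a core subunit, had 5.49 and 5.53 in the IP, 4.32 in IgG and 5.70 in input. It rose 2.27-fold over IgG and differed from input by -0.19 (SE 0.23), without passing. The remaining factors were at low values with small differences. Ndufaf2, a relative of the subunit Ndufa12, had 4.61 and 4.61 in the IP, 4.22 in IgG and 4.50 in input. It passed in neither comparison by the common-spread test, but its 0.40 over IgG became 0.72 after quantile normalization again and then passed. With the plain eBayes spread it passed against both controls, where its tied IP values gave it no spread of its own. Ndufaf6 had 4.30 and 4.21 in the IP, 4.18 in IgG and 4.24 in input, also without passing. Ndufaf8, the partner of Ndufaf5, had 4.06 and 4.54 in the IP, 4.67 in IgG and 4.54 in input and passed in neither comparison. Ndufaf5, which hydroxylates Ndufs7, was just under the level for testing, with 3.37 and 4.12 in the IP, 3.72 in IgG and 4.12 in input.

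The genes outside complex I differed among themselves. Ndufa4 had 7.32 and 7.0 in the IP, 5.69 in IgG and 8.08 in input, so it rose 2.76-fold over IgG and fell 1.90-fold against input, as most subunits did. Its relative Ndufa4l2, known as a hypoxia-induced gene, had 5.69 and 5.43 in the IP, 5.74 in IgG and 5.72 in input and passed in neither comparison, but after quantile normalization again its -0.18 from IgG became -0.54 and passed as a fall. The pseudogene Ndufs5-ps had 3.94 and 4.02 in the IP, 4.53 in IgG and 5.12 in input, below both controls in both replicates. Its -0.55 from IgG became -0.22 after quantile normalization again and no longer passed. Signal from its parent gene cannot be told apart from its own here.

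Other genes of the respiratory chain are given by counts and medians, with no test of their difference from the Nduf genes. Of 43 listed genes of complexes II to V, 36 had a named probe set and 35 were tested. Against input 25 fell and 10 did not pass, with a median of -0.61, and 9 (25.7%) were at least 2-fold lower in both replicates. Against IgG 25 rose and 2 fell, with a median of 0.67, and 9 stood 2-fold or more above it in both replicates. IgG minus input had a median of -1.40. No gene of this list stood 2-fold or more above both controls in both replicates, where 2.49% of all tested genes did.

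Complex II, the succinate dehydrogenase, had 4 genes that all rose against IgG, from 1.01 for Sdhb to 1.47 for Sdhd. Against input Sdhb (-0.71) and Sdhc fell, and Sdha lay at 0.00. In complex III, the cytochrome bc1 complex, Uqcr10 was lowest against input at -1.64 and Uqcrfs1 highest at -0.06, which did not pass. Against IgG, Uqcrc2 rose by 2.46 and Cyc1 differed by 0.09 without passing. In complex IV, Cox6b1 fell by 1.47 against input on the log2 scale and Cox6c lay at -0.03, while against IgG Cox7a2l rose by 1.23 and Cox5b fell by 0.87. In complex V, the ATP synthase, Atp5d had the lowest difference from input at -2.15 and Atp5k the highest at 0.04, which did not pass. Against IgG, Atp5mpl rose by 3.01 and Atp5o fell by 1.11.

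Of 11 tested complex I assembly genes without an Nduf name, 6 fell against input and 5 did not pass, and 4 rose against IgG and 7 did not pass. Their medians were -0.52 and 0.34. Among all tested genes 22.3% fell against input and 39.0% rose against IgG. Tmem126b, of the membrane arm assembly complex, was lowest against input at -1.23, and Dmac2 was highest at 0.35 without passing. Tmem126a rose by 2.39 over IgG, and Nubpl, an iron-sulfur carrier for complex I, lay at -0.08. The mitochondrially encoded subunits of complex I were not analysed here.

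**Figure D4:**
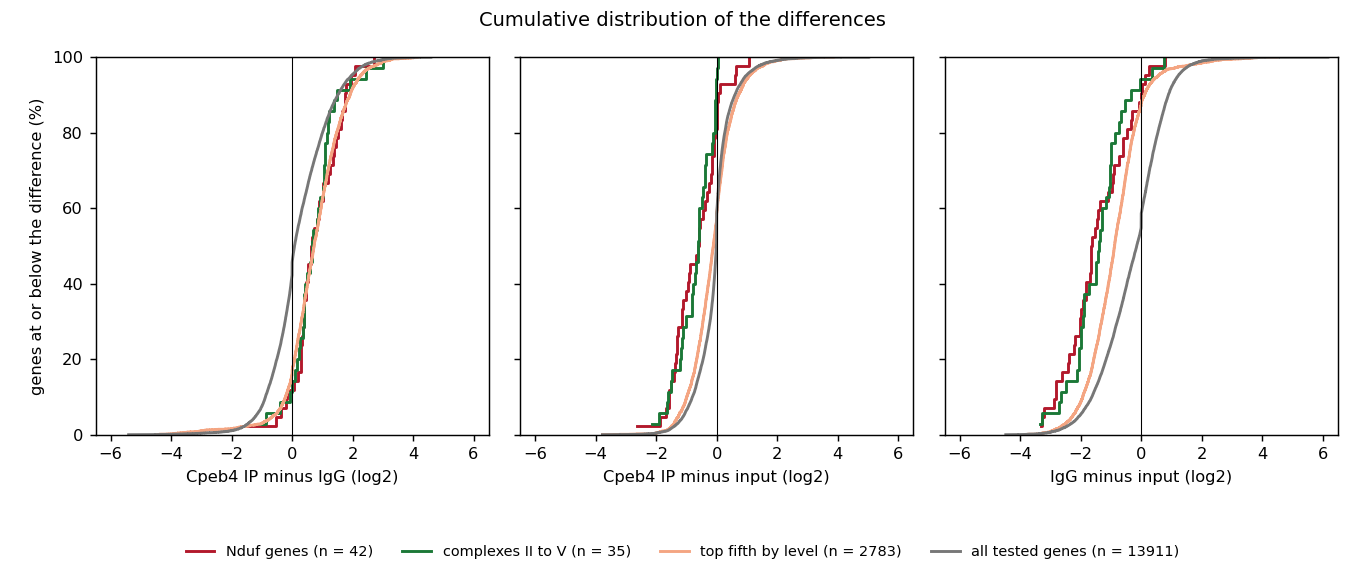
Share of genes (%) at or below each log2 difference, for Cpeb4 IP minus IgG, Cpeb4 IP minus input and IgG minus input; red is the 42 tested Nduf genes, green 35 genes of complexes II to V, light orange the highest 20% of tested genes by level and grey all 13911 tested genes. Against IgG the Nduf curve runs along that of the highest 20% (medians 0.64 and 0.73), and against input it lies to the left of it (medians -0.61 and -0.11). Of the 42 Nduf genes 19 are in that highest 20%, so the curves are not matched by level.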

How the data were processed

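RNA from 4 samples was measured on Affymetrix arrays. Each deposited value is a log2 level of a probe set on an array. Per the submitters' processing notes, RMA from affy was used. Software versions, the probe definition and the genome build are not given in the sources used here. The RMA method subtracts background, equalises probe distributions by quantile normalization and summarises each probe set by median polish. That can shrink differences between unlike samples and give equal values on different arrays: 21.8% of tested genes were tied (within 1e-09) between the IP arrays, 4 Nduf genes among them.

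Probe sets were named through the platform annotation, which can be old; 23185 had 1 symbol. A gene entered the test if its mean of all 4 arrays was at or above the 40th percentile of such means among named probe sets. Differences were fitted with limma 3.58.1 in R 4.3.3 (3 groups, 1 residual degree of freedom). Because tied genes have no spread of their own, the pooled SD of the IP replicates in each twentieth of mean value (0.0663 to 0.201) was used with a normal distribution. The p-values therefore cover the spread between the IP replicates only, and the number of arrays limits the precision. Samples were grouped by their titles.

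The members, lists, test and alternatives were chosen with earlier results of these data known. Values on every array are given for the 6 members highest and 6 lowest against each control, all core subunits, all Ndufaf factors and untested members; others are given more briefly. Of each other pathway list, the highest and lowest member against each control is named. Alternatives were other filters (none, 60th percentile), scalings, spreads, thresholds and folds, and leaving out each IP replicate. The scalings of counts taken over both controls were added after seeing the data. No sequences are shown, since transcript sequences were not used here.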

Additional observations from a re-analysis of the deposited data

How the results depend on the processing

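Rescaling moved the counts against IgG more than those against input, while another spread cut the falls against input more than the rises over IgG. After quantile normalization again 21 Nduf genes rose and 11 fell against IgG, beside 30.8% and 31.2% of all tested genes. The Nduf median was then 0.35, and IgG minus input had a median of -1.0. Under this normalization 1 gene (Ndufaf4) was at least 2-fold higher than input and 1 (Ndufa11) at least 2-fold lower than IgG. Centring each array gave a median of 0.40 against IgG and -1.34 for IgG minus input, with 1 gene (Ndufa11) at least 2-fold lower than IgG. Between the controls in both replicates lay 17 genes after quantile normalization again and 22 after centring, and 11 and 14 rose against IgG and fell against input. These alternatives for counts over both controls were chosen after seeing the data. With limma's plain eBayes spread 18 rose and 0 fell against IgG (1 fell at an unadjusted p under 0.05) and 8 fell against input. With eBayes trend and robust the numbers were 14, 0 (also 1) and 4. Shares of all tested genes with the eBayes spreads are not given here. Ndufaf2 is in both eBayes counts of rises over IgG, though its IP values were tied and gave it no spread of its own. At 1.5-fold, 3 genes were higher than input, the same number higher than both controls, and 1 lower than IgG. At 4-fold, 1 was higher than IgG (Ndufb11) and 1 lower than input (Ndufs8). Without each IP replicate in turn, 15 to 16 genes reached 2-fold above IgG and 15 to 17 reached it below input. In the same way 0 to 1 were higher than input, 0 to 1 lower than IgG, 0 to 1 lower than both controls and 0 to 0 higher than both. The medians then ran from 0.62 to 0.67 against IgG and from -0.62 to -0.60 against input. The other alternatives kept each count within 1.5 times its main value. A planned look at protein length was not run, because no protein table was used here. No paired analysis was possible because the IgG and input groups have 1 array each and carry no replicate numbers. Each control being 1 array, its own spread is unknown.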
